A study of Mus musculus with 4 samples.

Results

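The miR-199 and miR-214 microRNAs were followed across 4 small RNA libraries of mouse embryonic fibroblasts (MEFs), which are primary connective tissue cells cultured from embryos. They were chosen by name, as every listed row whose name starts with miR-199a or miR-199b, or is miR-214 with or without a star. This gave 5 of the 508 endogenous microRNAs listed: miR-199b, miR-199b*, miR-199a-5p, miR-214 and miR-214*. All 5 were listed in each library, and all 5 passed the floor used for comparisons, together with 367 others.

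Each group holds 1 library. All cells carry shLuc.1309, a hairpin RNA (shRNA) directed at luciferase, a reporter gene with no counterpart in the mouse genome. The 4 groups are shLuc.1309 cells without doxycycline (dox), shLuc.1309 cells with dox, shLuc.1309;ROSA-rtTA cells without dox and shLuc.1309;ROSA-rtTA cells with dox. The reverse tetracycline transactivator (rtTA) is placed at the ROSA locus, which is active in most mouse cell types, and switches on tetracycline-responsive promoters when dox is present. The dose and duration of dox and the number of embryos behind a library are not stated in the labels. Since every group is a lone library, the differences could not be checked against replicates. They are differences between libraries, not conditions, and no p-value is given.

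MicroRNAs are cut from hairpin precursors, and either arm of the hairpin, 5p or 3p, can be loaded into an Argonaute protein, where bases 2 to 8 (the seed) do most of the pairing with target messenger RNAs. miR-199a-2 and miR-214 are processed from the long noncoding transcript Dnm3os, which runs antisense to an intron of dynamin 3 and is known for its expression in mesenchymal cells and its need for normal skeletal growth. The transcription factor Twist1 is known to drive Dnm3os. miR-199 and miR-214 are widely used as marks of mesenchymal cells such as fibroblasts.

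The listed sequences are shown because they decide which hairpin and which seed each count can belong to; capitals mark the seed.
miR-199a-5p: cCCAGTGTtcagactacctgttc
miR-199b*: cCCAGTGTttagactacctgttc
miR-199b: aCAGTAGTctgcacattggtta
miR-214: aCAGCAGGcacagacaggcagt
miR-214*: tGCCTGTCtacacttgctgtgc
The 5 rows carry 4 seeds. miR-199a-5p and miR-199b* share their seed and differ by C10T, with positions counted from 1 at the 5′ end of miR-199a-5p. miR-199b, miR-214 and miR-214* have a seed each. None of the other listed microRNAs had any of these seeds or lay within 2 mismatches of a member.

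All 5 sequences were found in RefSeq's mouse hairpins (GRCm38.p6), in 4 hairpins, which are shown with the counted arms in capitals to make clear where the arms coincide.
Mir199a-2: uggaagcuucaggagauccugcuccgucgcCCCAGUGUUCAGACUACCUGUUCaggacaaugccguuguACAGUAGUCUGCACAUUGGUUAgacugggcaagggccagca
Mir199a-1: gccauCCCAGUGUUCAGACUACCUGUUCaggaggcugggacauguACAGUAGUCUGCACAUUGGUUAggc
Mir199b: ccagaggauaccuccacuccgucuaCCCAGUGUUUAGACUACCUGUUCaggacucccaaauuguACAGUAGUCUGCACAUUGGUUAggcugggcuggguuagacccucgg
Mir214: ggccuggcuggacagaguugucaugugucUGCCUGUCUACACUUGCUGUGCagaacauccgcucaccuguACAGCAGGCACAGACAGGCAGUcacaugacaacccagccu
Mir199a-2 lies at chr1:162217814-162217923 and Mir214 at chr1:162223368-162223477, both on the plus strand, in an exon of Dnm3os and within an intron of Dnm3 on the opposite strand, with 5444 bases between them. Mir199a-1 lies at chr9:21496495-21496564 on the minus strand, antisense to an intron of Dnm2. Mir199b lies at chr2:32318460-32318569 on the plus strand, antisense to an intron of Dnm1. Dnm1, Dnm2 and Dnm3 encode dynamins, enzymes that pinch off membrane vesicles.

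The name Dnm3os therefore holds for part of the counts. miR-214 and miR-214* matched the Mir214 hairpin alone. miR-199a-5p matched Mir199a-1 and Mir199a-2, and miR-199b, which is the 3p arm, matched Mir199a-1, Mir199a-2 and Mir199b equally, so their counts cannot be assigned to 1 locus. miR-199b*, the 5p arm of Mir199b, matched that hairpin alone, which lies outside Dnm3os.

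Levels are in CPM, the count of a row per 1000000 endogenous microRNA counts of its library, with exact binomial (Clopper-Pearson) 95% intervals. Each count belongs to a listed mature sequence, of 22 or 23 bases for the 5 rows, and no correction for length was made. The libraries held 6378964 to 8774056 endogenous counts, and the shRNA stood at 726 CPM without rtTA and dox, 774 CPM with dox alone, 786 CPM with rtTA alone and 24386 CPM with both. All 18 fibroblast and mesenchymal microRNAs of a list without the members were detected, at a summed 541321 to 550999 CPM. The list was chosen with earlier results of these data known, so a high sum was built into it. In rtTA cells without dox its miR-21, miR-22 and miR-143 stood at 207301, 107853 and 86818 CPM. Epithelial markers (6 listed of 6) summed to 4.86 to 17.4 CPM and pluripotent markers (6 listed of 12) to 0.470 to 1.20 CPM. miR-290-5p, miR-290-3p, miR-291a-3p, miR-302c, miR-302d and miR-367 were at 0 in every library. A count of 0 allows up to 0.342 to 0.470 CPM, depending on the library. Intervals describe counting error only and treat reads as independent. Reads amplified by PCR are not independent molecules, so the intervals may be too narrow.

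Summed, the 5 rows took 2.85% of the endogenous counts in cells without rtTA and dox (95% interval 2.84% to 2.87%) and 2.62% in cells without rtTA but with dox (2.61% to 2.64%). In rtTA cells they took 2.15% without dox (2.14% to 2.15%) and 1.62% with dox (1.61% to 1.63%). Both rtTA libraries thus lay below both libraries without rtTA, and the induced library, rtTA with dox, was the lowest of the 4. In bulk RNA, fewer cells of a type and less RNA per cell cannot be told apart.

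miR-199b, the 3p arm shared by the 3 miR-199 hairpins, was the most abundant row, with 135551 counts (21249.7 CPM) in cells without rtTA and dox and 127419 (19483 CPM) in those with dox. It had 139458 counts (15894 CPM) in rtTA cells without dox and 79454 (10583 CPM) in rtTA cells with dox. The highest level was 2.01-fold the lowest, and the 4 intervals did not overlap. Intervals are narrow at so many counts, and the share of all microRNAs without overlap was not counted. miR-199b ranked 7, 8, 13 and 18 among the endogenous microRNAs in the same order of libraries. In the induced library it stood between miR-26a at 10957 CPM and miR-16 at 9751 CPM, while in the first library it stood between miR-24 at 33091 CPM and miR-125b-5p at 19770.1 CPM.

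miR-214, the dominant arm of its hairpin and known to target the chromatin regulator Ezh2, had 33170 counts (5199.9 CPM) without rtTA and dox and 28415 (4345 CPM) with dox alone. In rtTA cells it had 32992 counts (3760.2 CPM) without dox and 29320 (3905 CPM) with dox. The rtTA libraries were the lowest, but the order of these last libraries was the reverse of that of miR-199b. The 4 intervals, again narrow at these counts, did not overlap, and the whole range was 1.38-fold.

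miR-199a-5p had 10992 counts (1723 CPM) without rtTA and dox, 12778 (1954 CPM) with dox alone, 13139 (1497 CPM) with rtTA alone and 10702 (1425 CPM) with both. Here dox alone gave the highest level, and the rtTA libraries again were the lowest, with no overlap of the narrow intervals. miR-199b*, which has the same seed, kept that order, at 278 CPM (1776 counts), 355 CPM (2322), 227 CPM (1996) and 218 CPM (1638). Its intervals in the rtTA libraries, 218 to 238 CPM and 208 to 229 CPM, overlapped. miR-214*, the rarer arm of the miR-214 hairpin, was the least abundant row, at 98.4 CPM (628 counts), 109 CPM (711), 71.0 CPM (623) and 70.9 CPM (532). Its levels fell into 2 pairs, since the intervals of the libraries without rtTA overlapped (90.9 to 106 and 101 to 117 CPM) and so did those of the rtTA libraries (65.5 to 76.8 and 65.0 to 77.1 CPM).

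**Figure D1:**
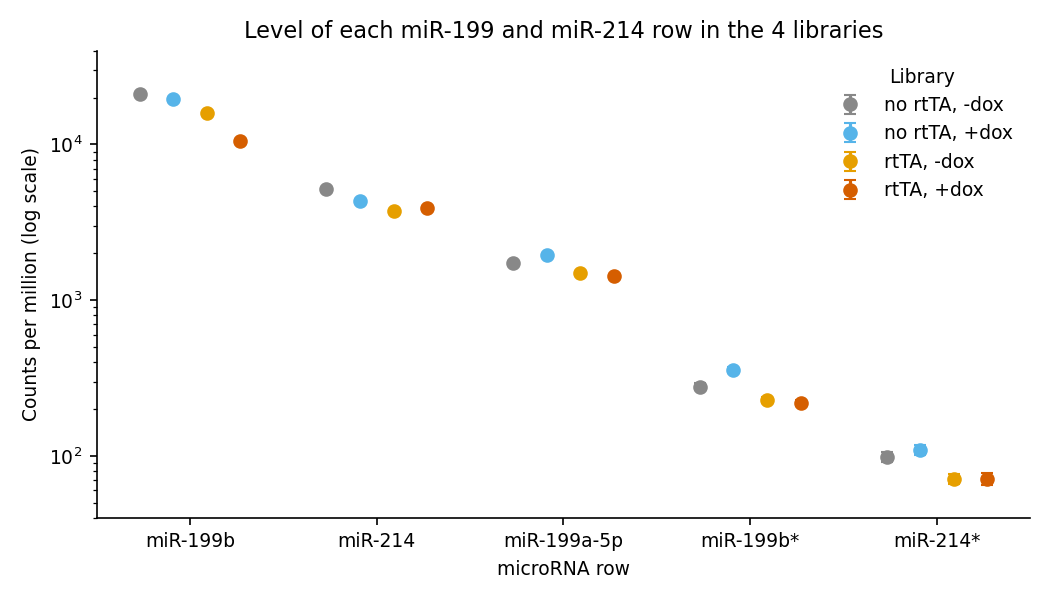
Level of each of the 5 rows in the 4 libraries, in CPM on a log scale; points are libraries and bars, mostly smaller than the points, are exact 95% counting intervals. In all 5 rows both rtTA libraries lie below both libraries without rtTA, and miR-199b in the induced library is the lowest of its row at 10583 CPM.

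The order of the rows was the same in every library: miR-199b, miR-214, miR-199a-5p, miR-199b* and miR-214*. The levels spanned 70.9 to 21249.7 CPM over rows and libraries, while no row differed by more than 2.01-fold between libraries. Adapter ligation differs between small RNA sequences, so levels of different microRNAs are not molar ratios.

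The comparison of rtTA without dox sets the genotypes against each other while the shRNA is uninduced, at 726 CPM without rtTA and 786 CPM with it. All 5 rows were lower with rtTA. The signs were the same under each scaling and after the trend on base composition described below was subtracted. Neither step could have changed a sign here. The largest scaling shift was 0.049, by DESeq2 factors, and the trend value of the rows lay between -0.074 and -0.072. The log2 ratios of CPM (rtTA over no rtTA, exact conditional 95% intervals) were -0.42 for miR-199b (-0.43 to -0.41), -0.47 for miR-214 (-0.49 to -0.45) and -0.47 for miR-214* (-0.63 to -0.31). The 5p arms of miR-199 had smaller differences, at -0.20 for miR-199a-5p (-0.24 to -0.17) and -0.29 for miR-199b* (-0.38 to -0.20). The summed rows stood at 0.751-fold (0.747 to 0.756). A row was counted as different when its CPM differed 2-fold or more and its interval excluded a ratio of 1. By this rule 0 of 5 rows were counted, against 1.88% of the 372 microRNAs.

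The median of the 5 rows was -0.42, beside -0.07 over all 372 microRNAs, whose quartiles were -0.29 and 0.17 and of which 217 lay below 0. From the lowest ratio upward, miR-214* ranked 44, miR-214 45, miR-199b 55, miR-199b* 95 and miR-199a-5p 131 of 372. The mesenchymal list without the members had a median of 0.013, with 9 of 18 below 0. Of markers of other cell types, 3 of 3 muscle microRNAs past the floor (4 on the list, median 0.52) lay above 0. So did 4 of 4 blood (6 on the list, 0.40), 6 of 6 neuronal (0.28) and 2 of 2 endothelial microRNAs (0.17). By the 2-fold rule 1 muscle microRNA was counted as higher, and 0 blood, neuronal or endothelial ones. Between the dox-treated libraries all 5 rows were again lower with rtTA. There 0 of 3 muscle (median 0.86), 2 of 4 blood (-0.21), 4 of 6 neuronal (-0.25) and 2 of 2 endothelial microRNAs (-1.03) lay below 0. In that comparison 1 muscle microRNA was counted as higher and 1 endothelial as lower. The summed muscle list stood at 262, 246, 382 and 592 CPM, in the order of libraries used for miR-199b. In rtTA cells most of it was miR-206, at 352 CPM without dox and 575 CPM with dox. With dox in rtTA cells miR-206 was thus higher (log2 ratio 0.71), while miR-1 (-1.08) and miR-133a (-0.44) were lower. In the same order of libraries the sums were 60.4, 63.6, 82.2 and 52.5 CPM for blood. They were 120, 175, 134 and 126 CPM for endothelial markers. For neuronal markers they were 590, 687, 712 and 724 CPM. Their part in the lower miR-199 and miR-214 levels was not tested.

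Dox in rtTA cells turns the shRNA on, and the comparison asks which endogenous microRNAs differ when the maturation machinery also handles an abundant artificial hairpin. miR-199b was 0.666-fold as high in the induced library (0.660 to 0.672), a log2 ratio of -0.59, while the other rows stayed near equality. miR-214 was at 0.055 (0.032 to 0.077), miR-199a-5p at -0.071 (-0.11 to -0.034), miR-199b* at -0.060 (-0.16 to 0.035) and miR-214* at -0.0030 (-0.17 to 0.17), which lies above 0 with TMM factors, with DESeq2 factors and with totals that omit the 10 most abundant microRNAs. By the 2-fold rule 0 of 5 were counted, against 9.95% of all 372. By a 1.5-fold rule miR-199b alone was counted, as lower, against 17.7% of all microRNAs counted as lower. The median of the 5 rows was -0.060, beside -0.057 over all microRNAs, and 69 microRNAs had a lower ratio than miR-199b.

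In this comparison ratios moved with base composition: across the 372 microRNAs, which are not independent and share 2 libraries, the Pearson correlation of the log2 ratio with the percentage of G in the sequence was 0.72. The members hold 17.4% G (miR-199a-5p and miR-199b*), 22.7% (miR-199b and miR-214*) and 31.8% (miR-214). With that linear trend removed, miR-199b was at -0.37 and miR-214 at -0.12, while miR-199a-5p was at 0.37, miR-199b* at 0.38 and miR-214* at 0.21. The 4 rows other than miR-199b thus changed sign, and miR-199b was the lowest of the 5 with and without the trend. Of 74 other microRNAs within 2.5 points of its G content, 7 had a lower ratio than miR-199b, and the median of the 74 was -0.14. miR-214*, with the same G content, had 48 of these 74 below it. In rtTA without dox the same correlation was -0.0038, and 11 of the 74 lay below miR-199b, 10 of the 74 below miR-214* and 2 of 53 neighbours below miR-214. What links base composition to the ratios was not tested.

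**Figure D2:**
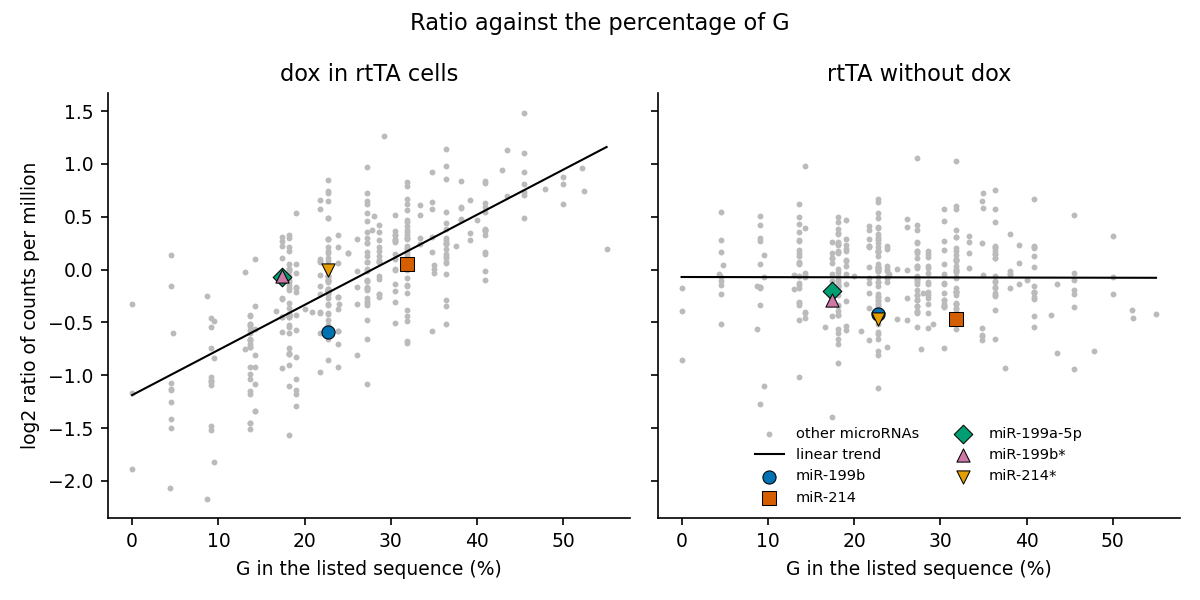
log2 ratio of CPM against the percentage of G of the listed sequence for 372 microRNAs in 2 comparisons; grey points are other microRNAs, coloured symbols the 5 rows and the line the linear trend. With dox in rtTA cells miR-199b, at -0.59, lies below the rising trend and the 5p arms above it; in rtTA without dox the trend is flat and all 5 rows lie below it.

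Dox without rtTA gives the drug alone, since the shRNA stays near its uninduced level. The arms of the hairpins went apart: miR-214 was lower with dox (-0.26, -0.28 to -0.24) and so was miR-199b (-0.13, -0.14 to -0.11), whereas miR-199a-5p (0.18, 0.14 to 0.22) and miR-199b* (0.35, 0.26 to 0.44) were higher. These 4 signs held under each scaling and with the G trend subtracted. Both steps were small beside the ratios, with a largest scaling shift of -0.045 (TMM) and trend values from -0.054 to 0.070. miR-214* was at 0.14, with an interval of -0.014 to 0.30 that spanned 0. By the 2-fold rule 0 of 5 rows were counted, against 1.61% of all 372, and the median of the 5 was 0.14, beside -0.039 over all.

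Set side by side, the dox ratios with and without rtTA, which share no library, had opposite signs in 4 of the 5 rows, against 57.3% of all 372. This count was 3 of 5 with TMM factors, DESeq2 factors or totals without the 10 most abundant microRNAs, and 0 of 5 with the G trend subtracted. The share over all microRNAs was not taken under these settings, so the change in the count has no background beside it. The dox ratio with rtTA minus that without was -0.46 for miR-199b (delta-method interval -0.48 to -0.44), -0.41 for miR-199b* (-0.54 to -0.28), -0.25 for miR-199a-5p (-0.30 to -0.20) and -0.15 for miR-214* (-0.37 to 0.082). For miR-214 it was 0.31 (0.28 to 0.35), the 1 difference above 0 under each scaling. With the G trend subtracted 4 of the 5 differences lay above 0, at 0.26 for miR-199a-5p, 0.10 for miR-199b*, 0.096 for miR-214* and 0.089 for miR-214, and miR-199b was at -0.22. None reached a 2-fold difference, against 18% of all microRNAs. The share of all microRNAs with a difference above 0 was not counted, with or without the G trend.

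rtTA with dox sets the induced library against dox-treated cells without rtTA, and so shares a library with each of the dox comparisons. All 5 rows were lower in the induced library: miR-199b at 0.543-fold (0.538 to 0.548; log2 ratio -0.88), miR-199b* at -0.70 (-0.79 to -0.61), miR-214* at -0.62 (-0.78 to -0.45), miR-199a-5p at -0.45 (-0.49 to -0.42) and miR-214 at -0.15 (-0.18 to -0.13). With the G trend subtracted miR-199a-5p lay above 0, at 0.13, and the other 4 rows between -0.57 and -0.12. The scalings tried changed none of the 5 signs, and could not have, since their largest shift was 0.10. By the 2-fold rule 0 of 5 were counted, against 16.7% of all 372. By the 1.5-fold rule 3 were counted as lower (miR-199b, miR-199b* and miR-214*), against 24.2% of all. The median of the 5 rows was -0.62, beside -0.07 over all microRNAs.

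**Figure D3:**
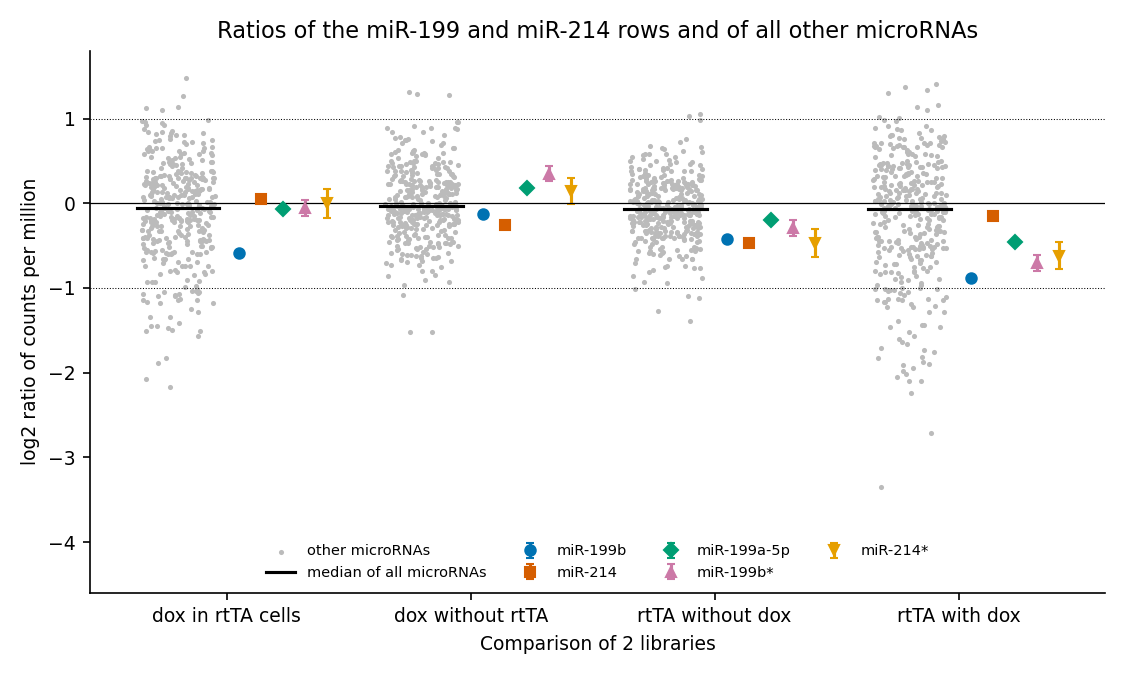
log2 ratio of CPM in the 4 comparisons; coloured symbols are the 5 rows with exact 95% counting intervals, grey points the other 367 microRNAs, black bars the median of all 372, and dotted lines mark 2-fold. All 5 rows lie below 0 in both rtTA comparisons and none passes a 2-fold line, while in dox in rtTA cells miR-199b stands apart from the other 4.

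The balance of arms also differed between libraries. The 5p arms (miR-199a-5p and miR-199b*) made up 8.61% of all miR-199 counts without rtTA and dox (8.47% to 8.75%), 10.6% with dox alone (10.4% to 10.8%), 9.79% with rtTA alone (9.64% to 9.94%) and 13.4% in the induced library (13.2% to 13.7%). In every library the 3p arm was the major one, from 6.44 counts per 5p count in the induced library to 10.6 in the first. The log2 odds of the 5p arm were higher by 0.52 with dox in rtTA cells (0.48 to 0.55) and by 0.33 with dox alone (0.30 to 0.37). Shifts of this size were not particular to miR-199 among 126 pairs of listed arms matched by name. In these miR-125b-5p is paired with both miR-125b* and miR-125b-3p. A pair needed 20 counts over both arms in each library, and 0.5 was added to each count. The rarer arm of some pairs, such as miR-374*, thus rests on few or 0 counts, and their odds are noisy. With dox in rtTA cells 29 of the 126 pairs had a log2 odds of the rarer arm at least as high, the miR-199b pair included. The quartiles of the 126 were -0.68 and 0.45.

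The rarer arm of miR-214 held a smaller share than that of miR-199. miR-214* took 1.86% of the counts of both arms without rtTA and dox (1.72% to 2.01%), 2.44% with dox alone (2.27% to 2.62%), 1.85% with rtTA alone (1.71% to 2.003%) and 1.78% in the induced library (1.64% to 1.94%). The library with dox alone stood above the others and the other 3 overlapped. The log2 odds ratios of miR-214* were -0.058 with dox in rtTA cells (-0.23 to 0.11), 0.40 with dox alone (0.25 to 0.56), -0.0038 with rtTA alone (-0.17 to 0.16) and -0.46 with rtTA under dox (-0.63 to -0.30). Of the 126 pairs of arms, 67 were at least as far from 0 with dox alone and 73 with rtTA under dox. Among them are pairs with few counts in the rarer arm. Over the 126 pairs the median share of the rarer arm ran from 4.41% to 5.19% across libraries.

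The base at position 10 gives the share of miR-199 5p counts that come from Mir199b on chromosome 2 as opposed to the miR-199a hairpins. It was 13.9% without rtTA and dox (13.3% to 14.5%), 15.4% with dox alone (14.8% to 16.0%), 13.2% with rtTA alone (12.7% to 13.7%) and 13.3% in the induced library (12.7% to 13.9%). The share was highest with dox alone and the other intervals overlapped, although miR-199b, the common 3p row, differed by 2.01-fold between the extreme libraries. The mismatches the authors allowed when counting are not stated in the labels or headers, and reads could have been shared between these rows.

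miR-214 was set against miR-199b, the major arm of miR-199. Of the hairpins that miR-199b matches, Mir199a-2 alone lies near Mir214, on chromosome 1. The counts of miR-214 and miR-199b are therefore not those of neighbouring hairpins alone. Of the counts of both, miR-214 held 19.7% (19.5% to 19.9%), 18.2% (18.04% to 18.43%) and 19.1% (18.9% to 19.3%) in the uninduced libraries in the order above and 27.0% in the induced one (26.7% to 27.2%). The induced library was the outlying one, with 2.71 miR-199b counts per miR-214 count against 4.09 to 4.48 in the others. miR-214 holds 31.8% G and miR-199b 22.7%, and the part of base composition in this shift was not tested.

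**Figure D4:**
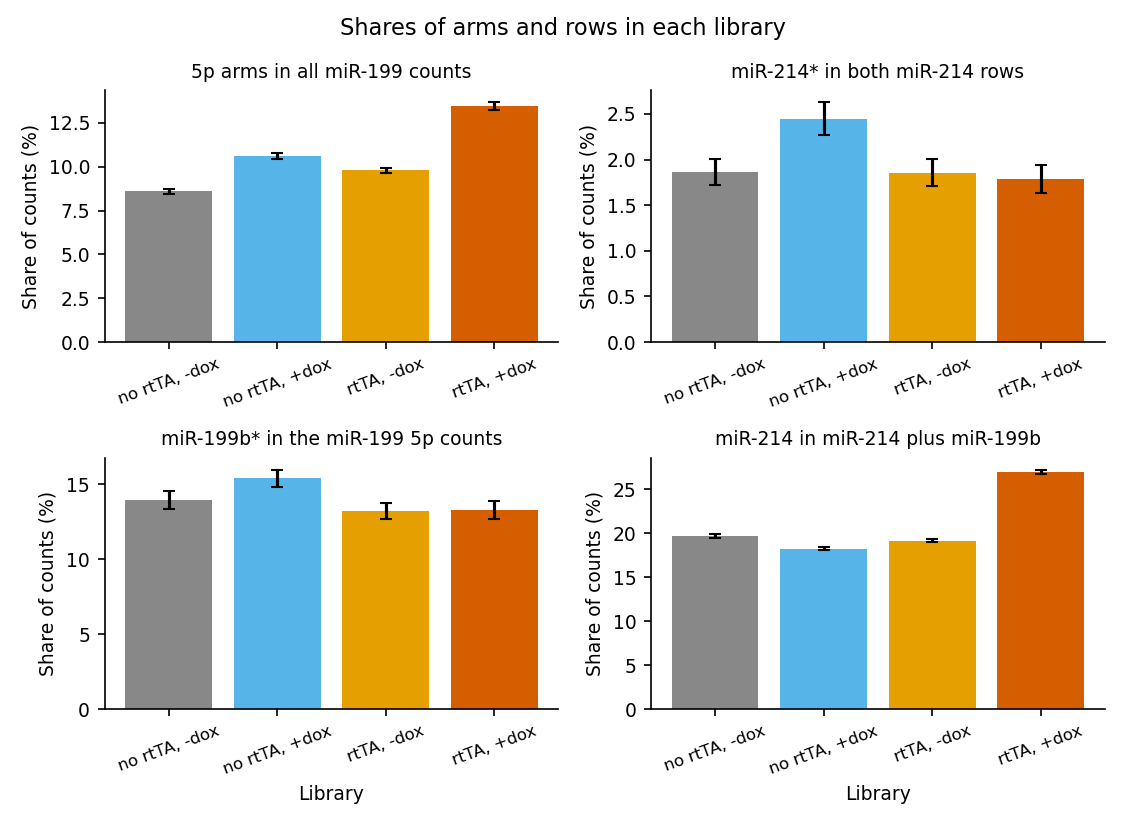
Share of counts, in percent, in the 4 libraries, for the 5p arms of miR-199, miR-214*, miR-199b* among the 5p arms, and miR-214 beside miR-199b; bars start at 0 and error bars are exact 95% binomial intervals. The induced library is the highest for the 5p arms (13.4%) and for miR-214 beside miR-199b (27.0%), and dox alone is the highest for miR-214* (2.44%) and miR-199b* (15.4%).

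Likeness between profiles was measured as the Euclidean distance between log2(CPM + 1) values centred on their mean over the 4 libraries. Among the members the closest were miR-199b* and miR-214* (0.16) and miR-199a-5p and miR-199b* (0.21), and the farthest were miR-199b and miR-214 (0.57), although both sequences match a hairpin in Dnm3os. Of the other microRNAs, those nearest to miR-214 were miR-22* (0.081), miR-301b (0.13) and let-7i* (0.16), where the median distance was 0.59. Those nearest to miR-199b were miR-212 (0.11), miR-582-5p (0.15) and miR-485* (0.19), with a median of 0.81. miR-872* (0.089), miR-701 (0.095) and miR-190b (0.12) were nearest to miR-199a-5p. The nearest to miR-199b* were miR-666-3p (0.086), miR-101a (0.099) and miR-615-3p (0.10), and miR-214* had miR-615-3p (0.091), miR-376b* (0.14) and miR-101a (0.14). With 4 points per profile, such likeness is a description of these libraries.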

How the data were processed

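Small RNA from MEFs was sequenced in 4 libraries, 1 per group, grouped by their titles. The authors deposited raw counts per listed microRNA and sequence, plus a row for the shRNA. The aligner, allowed mismatches and build are in neither the labels nor the headers used here. Rows missing from a library were set to 0.

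CPM left the shRNA out of the total. Compared were the 372 microRNAs whose mean CPM over the libraries was at least 20 counts in the shallowest library (3.14 CPM). Ratios and intervals (scipy 1.17.1) were checked on simulated counts that held counting error only. Such a check cannot show how the intervals cover the spread between libraries. Alternatives were TMM (edgeR 4.0.16) and DESeq2 1.42.0 factors, totals without the 10 most abundant microRNAs or with the shRNA, other floors, a 1.5-fold rule and a subtracted G trend (for sums at their count-weighted G content). Named besides the 5 rows are microRNAs sharing a seed, the 3 nearest profiles per row, rank neighbours and marker lists. Members and lists were chosen with earlier results of these data known. Hairpins are RefSeq's (GRCm38.p6) and host genes GENCODE M21's.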

Additional observations from a re-analysis of the deposited data

Results flagged for a closer look

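In 2 rows the dox ratio pointed opposite ways in cells with and without rtTA with each counting interval clear of 0. The share of all 372 microRNAs that meet this rule was not counted, and opposite signs alone were found in 57.3% of them. Counting intervals are narrow in rows with many counts, so they clear 0 at small ratios. miR-199a-5p was at -0.071 with rtTA and 0.18 without, a difference of -0.25, and miR-214 was at 0.055 with rtTA and -0.26 without, a difference of 0.31. With the G trend subtracted the signs were alike, at 0.37 and 0.11 for miR-199a-5p and -0.12 and -0.21 for miR-214. With the shRNA in the total the interval of miR-214 in rtTA cells was -0.0018 to 0.044 and spanned 0. With 1 library per group these differences were not tested against the spread between replicates.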

How the results depend on the processing

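The log2 ratio of the summed rows stayed below 0 in all 4 comparisons under every alternative tried. With dox in rtTA cells it was -0.40, and -0.37 by TMM, -0.37 by DESeq2 factors, -0.39 without the 10 most abundant microRNAs, -0.44 with the shRNA in the total and -0.24 with the G trend subtracted. With dox alone (-0.12) these were -0.17 (TMM), -0.15 (DESeq2), -0.11 (without the 10) and -0.13 (G trend). With rtTA alone (-0.41) they were -0.39, -0.36, -0.39 and -0.34 in that order. With rtTA under dox (-0.70) they were -0.60, -0.59, -0.67 and -0.45, and -0.73 with the shRNA in the total. The difference of the dox ratios of the sum was -0.28, and -0.21 by TMM, -0.23 by DESeq2, -0.32 with the shRNA and -0.11 with the G trend subtracted. Scalings shift every ratio of a comparison by the same amount, at most 0.10. Subtracting the G trend shifts a sum by the value of the trend at its count-weighted G content. Why ratios follow G content was not tested. No row was counted under any scaling, floor or the G trend, while the 1.5-fold rule counted 1 with dox in rtTA cells and 3 with rtTA under dox. No paired analysis was possible because each group holds 1 library. The rarest row, miR-214*, rests on 532 to 711 counts.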
